A study of Mus musculus with 16 samples.

Results

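The genes described here encode 2 families of nuclear RNA-binding proteins that choose which exons enter an mRNA, the serine/arginine-rich (SR) splicing factors and the heterogeneous nuclear ribonucleoproteins (hnRNPs). They were taken by name, as protein-coding genes called Srsf or Hnrnp followed by a number or letters, and the rule uses no measured value. This gave 30 genes, 11 SR genes and 19 hnRNP genes, of 53379 genes in the table, and 29 of them were among the 14913 genes expressed highly enough to test (at least 1 FPKM in at least 2 libraries). The remaining one, Srsf12, was listed at 0 to 0.132 FPKM and was not tested.

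SR proteins bind short exonic sequences through RNA recognition motifs and bring the spliceosome to nearby splice sites through a tail rich in arginine and serine, which SRPK and CLK kinases phosphorylate. Many hnRNPs coat nascent transcripts and often oppose exon inclusion, so the balance between the families helps to set splicing patterns during liver maturation. Both families are known to limit their own amounts by splicing a poison exon or a retained intron into their transcripts, which are then degraded by nonsense-mediated decay or held in the nucleus.

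RNA was sequenced from livers of C57BL/6J mice in which Mettl3, the catalytic subunit of the m6A methyltransferase, was deleted in the albumin-expressing lineage, and from livers of their controls. The mutant mice (Mettl3 cKO, here cKO) were Mettl3 flox/flox, with exons 2 to 4 between the loxP sites, and carried an Alb-Cre transgene driven by the albumin enhancer and promoter, for which they were heterozygous, so cells of the liver outside the albumin-expressing lineage keep the gene. The controls (Control), labelled WT in genotype, were littermates. Livers were taken on postnatal day 1 (P1) and at 1, 2 and 4 weeks of age (W1, W2 and W4), with 2 libraries of each genotype at each age, 16 in all. The methods of the study give 2 individuals for each time point.

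The depth, inferred from the smallest steps between values, was about 10.8 to 15.3 M reads per library, and replicate libraries correlated with Spearman's rho of 0.96 to 0.977 across genes. Mitochondrial transcripts held 25.2% and 43.8% of the total FPKM in W2 cKO libraries, against 58.1% and 59.0% in W2 Control libraries, and 14.8% to 34.7% in the other 12. Values below were rescaled by median of ratios (rescaled FPKM), and results on the deposited scale are given beside them. On the deposited scale the median log2 fold change over all genes tested, cKO over Control, was 0.07 at W1, 0.22 at W2 and 0.44 at W4, and after rescaling it lay within 0.02 of 0. Scaled to the total of nuclear genes, which leaves out mitochondrial transcripts, it was 0.14 at W1, -0.09 at W2 and 0.48 at W4. Both W1 cKO libraries came from females and both W1 Control libraries from males, judged by sex-linked transcripts, so sex and genotype cannot be told apart at W1. The P1 Control libraries were 1 male and 1 female, both P1 cKO libraries were female, and the W2 and W4 libraries were male throughout. Mettl3 itself had 6.92 to 9.31 rescaled FPKM in the 8 cKO libraries, against 5.47 to 9.19 in the 8 Control libraries, and did not differ past the threshold between genotypes at any age. These values count the whole gene and do not isolate exons 2 to 4, so they give no check of the genotype labels.

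The members differed widely in level. FPKM is scaled by the length of the gene, and the lengths used were not given in the sources used here, so ranks between members are approximate. Srsf2, a classical SR protein, had the highest median over the 16 libraries at 124 rescaled FPKM, followed by Srsf5 at 103, Srsf6 at 85.0 and Srsf11 at 76.5. The most abundant hnRNP transcripts were Hnrnpl at 74.3 and Hnrnpab at 72.5, which did not stand apart from Srsf11 beyond the range of each. At the low end were Hnrnpa3 at 9.59, Hnrnpll at 3.74 and Hnrnpr at 1.89 rescaled FPKM. In the GENCODE M21 annotation the exons of Hnrnpll cover 11677 nt and those of Hnrnpr 22199 nt, beside 3153 nt for Hnrnpa1. The low rank of these 2 genes thus depends on the length used.

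Summed over each family after rescaling, SR levels were lower in both cKO livers at W4, while hnRNP totals overlapped. In bulk liver, fewer cells of a type and less RNA per cell cannot be told apart. At W4 the 10 SR genes tested added up to 297 and 320.1 rescaled FPKM in cKO livers, against 559 and 654 in Control livers. The 19 hnRNP genes added up to 565 and 538 in cKO livers, against 568 and 539.7 in Control livers. The SR sums of cKO livers were also below those of Control livers at W1 (430.6 and 490.5, against 620.5 and 580.2) and W2 (486 and 507.6, against 706.7 and 712.1), and the groups overlapped at P1. As deposited, the W4 SR sums were 391 and 412 FPKM in cKO livers, against 489.6 and 530.1 in Control livers, and the W4 hnRNP sums were 743 and 692 in cKO livers, against 498 and 438 in Control livers. On that scale the W4 hnRNP sums were thus higher in both cKO livers, and the W2 SR sums overlapped (473 and 415 in cKO livers, against 468 and 496 in Control livers).

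The SR total divided by the hnRNP total of the same library does not depend on the scale. At P1 this ratio was 0.894 and 0.759 in cKO livers and 0.719 and 0.771 in Control livers, with overlapping values. It was 0.772 and 0.787 in cKO livers, against 1.050 and 1.02 in Control livers at W1. At W2 it was 0.871 and 0.973 in cKO livers, against 1.36 and 1.25 in Control livers, and at W4 it was 0.526 and 0.595 in cKO livers, against 0.983 and 1.21 in Control livers. The ratio was thus lower in both cKO livers than in both Control livers at W1, W2 and W4. The sums are dominated by Srsf2, Srsf5, Srsf6 and Srsf11 and are given as a description, with no test.

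**Figure D1:**
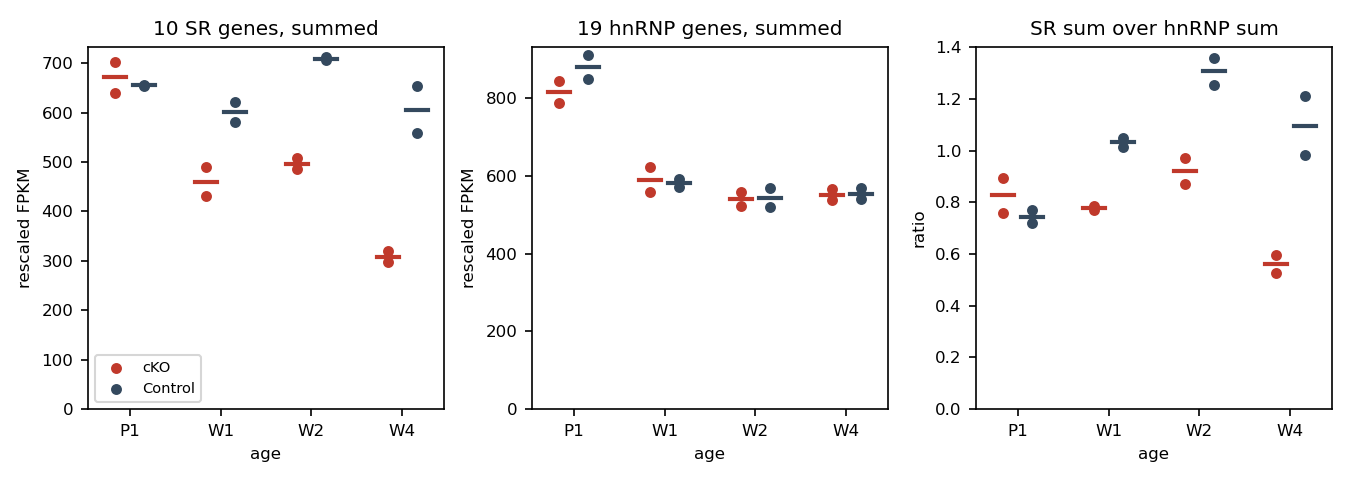
Summed level of the 10 SR genes (left), of the 19 hnRNP genes (middle), both in rescaled FPKM, and the ratio of the sums (right) against age; each point is 1 liver library and each bar the mean of 2. At W4 the SR sums of the cKO livers, 297 and 320, lie below those of Control livers, 559 and 654, while the hnRNP sums overlap (as deposited, they are higher in both cKO livers).

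At P1, the earliest age compared, no member was called in either direction. Calls were made with limma at an adjusted p below 0.05, with Benjamini-Hochberg adjustment over all 14913 genes, of which 0.107% were called higher and 0.0939% lower in cKO livers at P1. No member was called on the deposited scale either, beside 0.0738% of genes called higher and 0.0939% lower. Values after ± are standard errors (SE) of the fit. At an unadjusted p below 0.05, 1 member was higher and 1 lower. The share of all genes at that unadjusted threshold was not worked out, so this is no result about the members. The smallest p belonged to Srsf9, a close relative of Srsf1, with 13.8 and 13.4 in cKO, against 18.5 and 25.8 in Control livers (log2 fold change -0.65 ± 0.24 SE, limma adjusted p = 0.385). Next came Srsf11 (0.44 ± 0.20, adjusted p = 0.445), Hnrnpab (-0.42 ± 0.23, adjusted p = 0.536) and Hnrnpll (-0.25 ± 0.16, adjusted p = 0.59). The median log2 fold change of the 29 members was -0.06.

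At W1 a single member, Srsf5, passed the test, and it was lower in cKO livers. Srsf5 was first described as a gene induced in regenerating rat liver. It had 63.4 and 82.4 in cKO livers, against 137 and 132 in Control livers (limma log2 fold change -0.89 ± 0.15, with an adjusted p of 0.00662), and the groups did not overlap. This was 1 of 29 members, beside 2.28% of all genes called lower, and none was called higher, beside 2.35% of all genes. Srsf5 was again called lower on the deposited scale, beside 1.59% of genes called lower and 3.24% called higher. The call was lost with a term for sex, and when the first W1 Control or the first W1 cKO library was left out (log2 fold change -0.98, -0.86 and -0.71).

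Among the members not called at W1, Srsf6, which binds purine-rich exonic enhancers, had 65.9 and 77.0 rescaled FPKM in cKO livers, against 97.0 and 98.6 in Control livers, with a limma adjusted p of 0.0801. Hnrnpa0, which binds AU-rich elements of inflammatory mRNAs, had 48.3 and 62.3 in cKO livers, against 34.2 and 38.2 in Control livers, with an adjusted p of 0.0867. Hnrnph3, a small member of the G-run binding H/F group, had 11.9 and 12.2 in cKO livers, against 16.8 and 16.5 in Control livers, with an adjusted p of 0.152. In all 3 genes the 2 cKO values lay on one side of the 2 Control values. The median log2 fold change of the members at W1 was -0.11.

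At W2, 10 members were lower and 1 was higher in cKO livers, beside 14.5% of all genes called lower and 14.3% called higher. The 10 were divided equally between the families, with Srsf5, Srsf6, Srsf7, Srsf10 and Srsf11 among the SR genes and Hnrnpdl, Hnrnph1, Hnrnph3, Hnrnpr and Hnrnpu among the hnRNP genes. Hnrnpa0 was the single member that was higher, and it had 78.1 and 60.1 rescaled FPKM in cKO livers, against 22.2 and 26.0 in Control livers (limma log2 fold change 1.48 ± 0.18, with an adjusted p of 0.000272). Its cKO values stood more than 2-fold above both Control values. The lower members had log2 fold changes between -0.42 (Hnrnpdl) and -1.0 (Srsf11).

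Srsf11, an SR protein that promotes inclusion of neuronal microexons, had 65.1 and 75.3 in cKO livers, against 142 and 139 in Control livers at W2 (limma log2 fold change -1.0 ± 0.20, with an adjusted p of 0.00398). Srsf6 had 75.8 and 81.7 in cKO livers, against 131 and 127 in Control livers (limma log2 fold change -0.71 ± 0.13, with an adjusted p of 0.00291). Hnrnph3 had 14.4 and 16.1 in cKO livers, against 21.8 and 28.3 in Control livers (limma log2 fold change -0.67 ± 0.16, with an adjusted p of 0.00897). In each of the 3 genes both cKO values lay below both Control values.

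The W2 calls depended on the scale and on single libraries. As deposited, 1 member, Srsf11, was called lower, beside 4.49% of all genes, and 2, Hnrnpa0 and Hnrnpab, were called higher, beside 24.6%. Hnrnpa0 (log2 fold change 1.84 as deposited) and Srsf11 (-0.61) were called on the median-of-ratios, deposited and nuclear-total scales alike, the last being the sum of all non-mitochondrial values. The members called lower numbered 5 without the first W2 Control library, 2 without the second, 3 without the first W2 cKO library and 6, with Hnrnpul2 new among them, without the second. Without the second W2 cKO library 4 members were called higher, and 2 without either W4 Control library. With the 4 W2 libraries fitted alone, none was called in either direction. Shares of all genes were not worked out for that fit or for the fits without a library. Those counts are therefore no result about the members. Hnrnph3 was lost without the second W2 Control or the first W2 cKO library, and Srsf6 and Srsf11 were called without any 1 library.

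At W4 the members split, with 14 lower and 4 higher in cKO livers. This was 48.3% of the 29 members called lower, beside 24.5% of all genes, and 13.8% called higher, beside 26.3% of all genes. The 4 that were higher, Hnrnpa0, Hnrnpa1, Hnrnpab and Hnrnpf, were all hnRNP genes. The 14 that were lower were 7 of 10 SR genes (Srsf1, Srsf2, Srsf4, Srsf5, Srsf6, Srsf7 and Srsf11) and 7 of 19 hnRNP genes (Hnrnpd, Hnrnpdl, Hnrnph1, Hnrnph3, Hnrnpll, Hnrnpu and Hnrnpul2). The median log2 fold change of the members was -0.43, and it was -0.67 for the SR genes and -0.10 for the hnRNP genes, beside 0.01 for all genes tested.

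Hnrnpa0 (ENSMUSG00000007836, chr13:58125879-58128556 on the minus strand of GRCm38, which is mm10) lies in a gene annotated with 1 transcript. At W4 it had 57.6 and 51.2 rescaled FPKM in cKO livers, against 21.9 and 22.9 in Control livers (limma log2 fold change 1.24 ± 0.18, with an adjusted p of 0.000129), and its values did not overlap. Across the ages the Control values, 64.5 and 58.6 at P1, stood at 34.2 and 38.2 at W1, 22.2 and 26.0 at W2 and 21.9 and 22.9 at W4. The cKO values stayed between 48.3 and 78.1 at every age. Hnrnpa0 was thus lower at W4 than at P1 in Control livers, while the cKO values at W4 lay near the 52.9 and 65.5 of P1.

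Hnrnpa1, a repressor of exon inclusion that also shuttles to the cytoplasm, showed a like separation at W4. It had 24.7 and 23.4 in cKO livers, against 14.1 and 9.53 in Control livers (limma log2 fold change 0.99 ± 0.28, with an adjusted p of 0.0101). The values at P1 were 23.1 and 30.5 in cKO, against 35.3 and 35.9 in Control livers, at W1 16.1 and 17.0 in cKO, against 17.8 and 15.3 in Control livers, and at W2 14.6 and 7.90 in cKO, against 9.38 and 5.59 in Control livers, with overlap at W1 and W2. Hnrnpab, a relative of Hnrnpd that binds RNA and single-stranded DNA, had 115 and 106 in cKO livers, against 77.7 and 52.8 in Control livers at W4 (limma log2 fold change 0.77 ± 0.23, with an adjusted p of 0.0141). Hnrnpf, which binds G-runs, had 47.8 and 44.2 in cKO livers, against 33.1 and 33.3 in Control livers (limma log2 fold change 0.46 ± 0.17, with an adjusted p of 0.0433). None of these 3 sets of W4 values overlapped. The calls of Hnrnpa1 and Hnrnpab were lost without the second W4 Control library or the first W4 cKO library, either of which left Hnrnpa0 as the single member called higher. That of Hnrnpf was lost without any 1 of the 4 W4 libraries and of 6 libraries of other ages.

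Hnrnph3 (ENSMUSG00000020069, chr10:63014664-63024217, minus strand) had the largest difference of any member at W4 on the rescaled scale, while on the deposited scale its fold change of -1.08 (log2) was the largest among the lower members. It had 5.64 and 6.75 rescaled FPKM in cKO livers, against 19.2 and 24.0 in Control livers (limma log2 fold change -1.65 ± 0.16, with an adjusted p of 6.19e-06). At P1 it had 16.4 and 14.8 in cKO, against 14.4 and 12.7 in Control livers, with both cKO values above both Control values. Control values were highest at W2 and W4, and the 2 W4 cKO livers held the lowest values of all 16 libraries. Its exons overlap those of Rufy2 on the opposite strand, and whether the counting used strand was not given in the sources used here, so some reads may belong to Rufy2.

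Srsf5 (ENSMUSG00000021134, chr12:80945504-80950507, plus strand) had 52.8 and 52.6 in cKO livers, against 125 and 138 in Control livers at W4 (limma log2 fold change -1.30 ± 0.15, with an adjusted p of 2.53e-05). At P1 it had 91.8 and 99.4 in cKO, against 104 and 110.4 in Control livers, and at W2 103 and 88.4 in cKO, against 133 and 139.5 in Control livers. After rescaling, Srsf5 was below every Control library of the same age in all 8 cKO libraries. As deposited, the first W2 cKO library was above both W2 Control libraries, at 88.3 and 97.3 FPKM, and the log2 fold change was -0.77 at W1 and -0.68 at W4. Srsf11 (ENSMUSG00000055436, chr3:158010473-158036639, minus strand) had 35.5 and 39.4 in cKO livers, against 84.7 and 110.0 in Control livers at W4 (limma log2 fold change -1.35 ± 0.20, with an adjusted p of 0.000162). Its order was the other way at P1, with 107 and 75.7 in cKO, against 74.0 and 58.9 in Control livers, and at W1 it had 77.3 and 68.6 in cKO, against 109 and 91.8 in Control livers.

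Srsf4 and Srsf6 are close relatives with 2 RNA recognition motifs each. Srsf4 had 19.2 and 22.1 in cKO livers, against 43.7 and 58.1 in Control livers at W4 (limma log2 fold change -1.25 ± 0.21, with an adjusted p of 0.000416), and Srsf6 had 40.1 and 46.0 in cKO livers, against 70.8 and 76.9 in Control livers (limma log2 fold change -0.77 ± 0.13, with an adjusted p of 0.000505). Srsf2, which promotes exon inclusion and transcriptional elongation, had 65.4 and 73.3 in cKO livers, against 137 and 155 in Control livers (limma log2 fold change -1.06 ± 0.14, with an adjusted p of 8.50e-05). All 3 were lower in both cKO livers. Srsf2 had 151 and 149 in cKO, against 151 and 170.2 in Control livers at P1. At W1 it had 90.0 and 110.5 in cKO, against 123 and 118 in Control livers. At W2 it had 112 and 113 in cKO, against 131 and 125 in Control livers. After rescaling the groups thus stood apart from W1 on and passed the test at W4. As deposited, the order at W2 was the other way, with 109 and 92.0 FPKM in cKO, against 86.5 and 86.9 in Control livers. Srsf6 had 99.2 and 94.2 in cKO, against 92.7 and 88.4 in Control livers at P1. The exons of Srsf2 overlap those of Mettl23 and Mfsd11 on the opposite strand, so its level is uncertain to that extent.

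Hnrnpdl, a relative of Hnrnpd that regulates its own transcript through nonsense-mediated decay, had 21.7 and 23.1 in cKO livers, against 42.1 and 44.8 in Control livers at W4 (limma log2 fold change -0.93 ± 0.12, with an adjusted p of 6.89e-05). Its values were 58.4 and 61.9 in cKO, against 65.8 and 65.6 in Control livers at P1. They were 42.0 and 41.8 in cKO, against 49.0 and 49.0 in Control livers at W1. At W2 they were 29.4 and 29.1 in cKO, against 36.1 and 43.2 in Control livers. Both cKO values were lower at each age after rescaling. As deposited, the W2 values of Hnrnpdl overlapped, at 28.6 and 23.8 FPKM in cKO, against 23.9 and 30.1 in Control livers. It was not called at W4 on that scale. Hnrnpu, which binds chromatin-associated RNA, had 38.4 and 33.4 in cKO livers, against 57.8 and 62.0 in Control livers at W4 (log2 fold change -0.73, adjusted p = 0.00193). Hnrnpu had 60.7 and 68.0 in cKO, against 70.0 and 56.2 in Control livers at P1. At W1 it had 39.7 and 46.0 in cKO, against 51.8 and 43.7 in Control livers. At W2 it had 40.5 and 41.7 in cKO, against 57.3 and 60.7 in Control livers. After rescaling the groups overlapped at P1 and W1 and stood apart at W2. As deposited, they overlapped at W2 (39.4 and 34.1 FPKM in cKO, against 38.0 and 42.3 in Control livers). They overlapped at W4 too (50.5 and 43.0 in cKO, against 50.6 and 50.3 in Control livers). The other lower hnRNP genes at W4 had log2 fold changes between -0.84 for Hnrnph1 and -0.47 for Hnrnpll.

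Srsf1, the founding SR protein, had 22.4 and 23.6 in cKO livers, against 31.0 and 35.2 in Control livers at W4 (limma log2 fold change -0.50 ± 0.14, with an adjusted p of 0.00988). Earlier it had 44.5 and 49.6 in cKO, against 50.6 and 46.7 in Control livers at P1, 26.0 and 30.2 in cKO, against 32.3 and 27.2 in Control livers at W1 and 26.2 and 28.4 in cKO, against 31.8 and 33.8 in Control livers at W2, with overlap at P1 and W1. Srsf7, which also aids mRNA export, had 18.8 and 21.7 in cKO livers, against 23.6 and 38.8 in Control livers at W4 (limma log2 fold change -0.56 ± 0.22, with an adjusted p of 0.0496) and was lost without any 1 of 13 libraries. It had 54.6 and 48.2 in cKO, against 44.3 and 41.9 in Control livers at P1, 22.9 and 29.1 in cKO, against 30.3 and 30.3 in Control livers at W1 and 22.9 and 31.8 in cKO, against 42.2 and 43.1 in Control livers at W2. Srsf10, a splicing repressor when dephosphorylated, had 12.1 and 10.1 in cKO livers, against 14.9 and 15.4 in Control livers at W4 and did not pass (log2 fold change -0.43, adjusted p = 0.125), although both cKO values were lower. It had 44.6 and 32.2 in cKO, against 36.4 and 29.8 in Control livers at P1, 19.4 and 17.9 in cKO, against 24.4 and 16.5 in Control livers at W1 and 11.1 and 10.01 in cKO, against 14.4 and 20.2 in Control livers at W2.

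Some members separated little or not at all at W4 on the rescaled scale. Srsf3, which is required for hepatocyte maturation in mice, had 16.8 and 15.2 in cKO livers, against 15.5 and 16.1 in Control livers at W4 (log2 fold change 0.01 ± 0.13 SE). It had 36.2 and 34.2 in cKO, against 40.0 and 40.0 in Control livers at P1, 21.2 and 23.4 in cKO, against 24.6 and 23.7 in Control livers at W1 and 19.04 and 15.1 in cKO, against 19.8 and 19.04 in Control livers at W2. Hnrnpc, which binds uridine tracts that m6A can expose, had 35.2 and 35.0 in cKO livers, against 29.8 and 32.4 in Control livers at W4 (log2 fold change 0.17 ± 0.15), after 38.3 and 47.3 in cKO, against 51.4 and 46.4 in Control livers at P1, 27.8 and 30.4 in cKO, against 33.3 and 31.0 in Control livers at W1 and 29.2 and 25.6 in cKO, against 28.1 and 34.0 in Control livers at W2. Hnrnpk, which binds cytidine-rich sequences, had 61.0 and 55.9 in cKO livers, against 66.0 and 53.4 in Control livers (log2 fold change -0.02 ± 0.15), after 71.9 and 79.8 in cKO, against 90.6 and 82.8 in Control livers at P1, 60.5 and 62.8 in cKO, against 56.3 and 54.7 in Control livers at W1 and 54.9 and 47.9 in cKO, against 42.3 and 53.0 in Control livers at W2. None of the 3 passed the test on this scale at any age. All 3 were called higher in cKO livers at W4 on the deposited scale, with log2 fold changes of 0.60, 0.78 and 0.59.

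**Figure D2:**
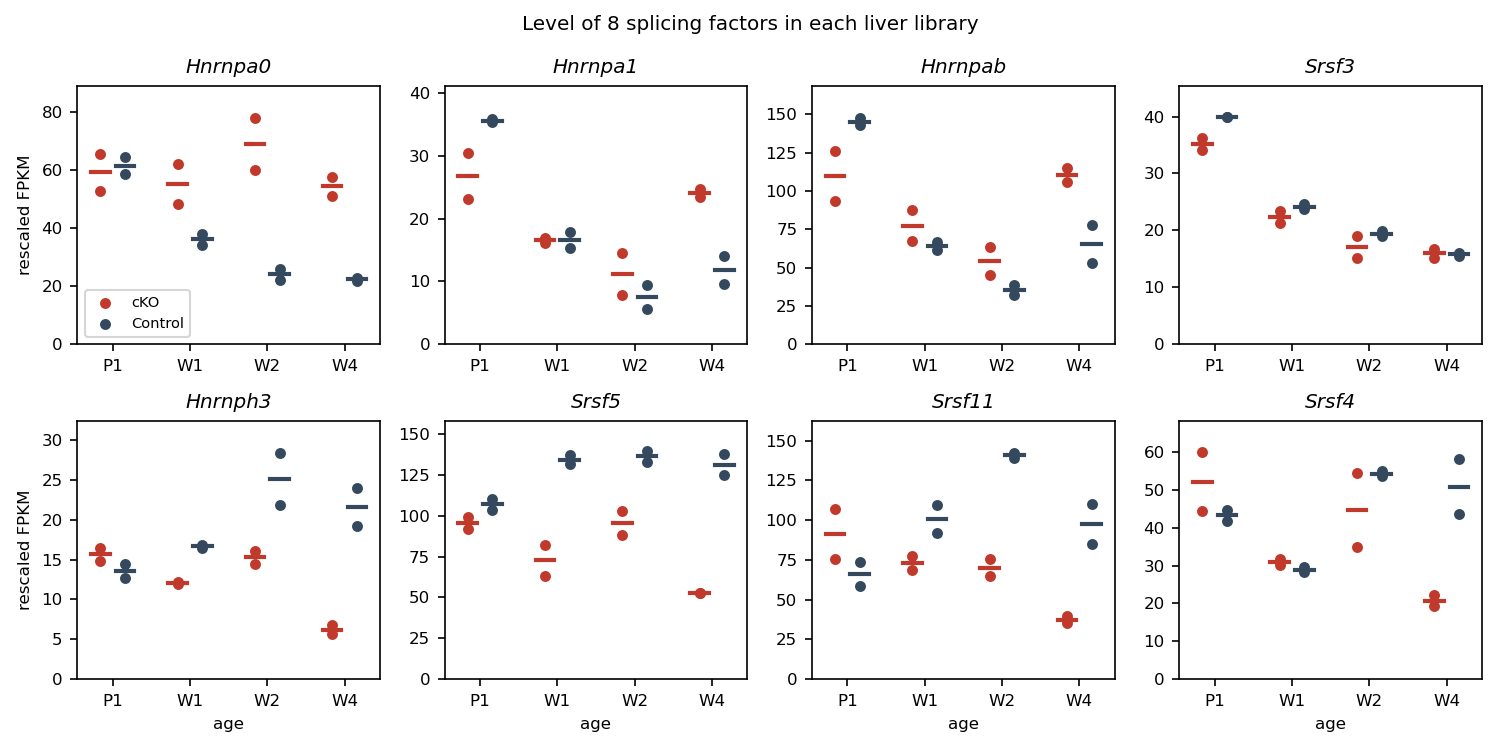
Rescaled FPKM of 8 members (1 panel each) in every library against age; points are libraries and bars the mean of 2. Hnrnpa0 stays between 48.3 and 78.1 in cKO livers while Control livers reach 21.9 and 22.9 at W4, and Hnrnph3, Srsf5, Srsf11 and Srsf4 are lower in both cKO livers at W4.

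Because the scale decides where the line of no change lies, the W4 comparison was set out on 3 scales. On the deposited scale 10 members were called higher, beside 46.9% of all genes, and 5 lower, beside 12.4% of all genes, with a median over the members of 0.15 beside 0.44 over all genes. Hnrnpa0, Hnrnpa1, Hnrnpab and Hnrnpf were called higher and Hnrnph3, Srsf5 and Srsf11 lower on all 3 scales. As deposited, Hnrnpa0 had a log2 fold change of 1.85, Hnrnph3 -1.08, Srsf11 -0.73 and Srsf5 -0.68. Srsf2 and Srsf4 were called lower on the median-of-ratios and deposited scales. Of the 18 calls, 4 changed sign on the deposited scale and were not called there, namely Hnrnpd, Hnrnpll, Srsf1 and Srsf7 (0.04, 0.02, 0.10 and 0.04).

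**Figure D3:**
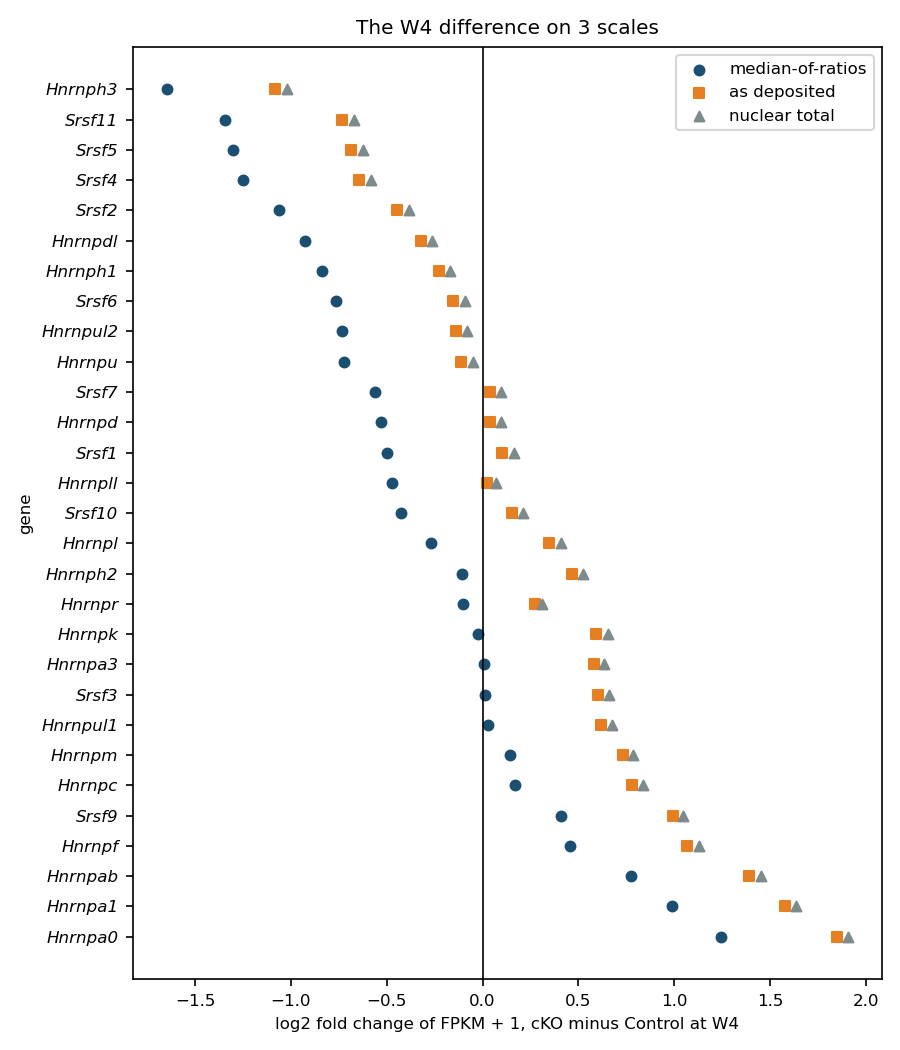
Log2 fold change of FPKM + 1, cKO minus Control at W4, for 29 members on the median-of-ratios (circles), deposited (squares) and nuclear-total (triangles) scales. Deposited and nuclear-total values lie to the right of the median-of-ratios values, and Hnrnph3, at -1.65 on the first scale, remains on the left of 0 on each.

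Ratios of 2 members within a library carry no scale, and 3 of them, chosen after the values were seen, are given as a description. Srsf5 FPKM divided by Srsf3 FPKM was 3.15 and 3.47 in W4 cKO livers, against 8.07 and 8.57 in W4 Control livers, and 2.54 and 2.91 in P1 cKO livers, against 2.59 and 2.76 in P1 Control livers. Hnrnpa0 FPKM divided by Hnrnpu FPKM was 1.501 and 1.53 in W4 cKO livers, against 0.379 and 0.369 in W4 Control livers, and 0.873 and 0.963 in P1 cKO livers, against 0.920 and 1.04 in P1 Control livers. Both ratios overlapped at P1 and stood apart at W4. Srsf11 FPKM divided by Hnrnpa1 FPKM was 1.44 and 1.68 in W4 cKO livers, against 6.02 and 11.5 in W4 Control livers. It stood apart at P1 too, in the other direction, with 4.65 and 2.48 in P1 cKO livers, against 2.09 and 1.64 in P1 Control livers.

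Promoter windows are printed for 4 of the members that lay farthest apart at W4, Hnrnpa0 and Hnrnpa1 among the higher and Hnrnph3 and Srsf5 among the lower. They are RefSeq sequences of GRCm38.p6, each spanning a gene start of RefSeq with most of its length upstream, 5′ to 3′ on the gene's strand. The Hnrnph3 window lies wholly inside the gene as GENCODE M21 draws it, whose start is farther upstream. Capitals mark GGGCGG (the GC box) and the CCAAT box, on either strand. The windows are chr13:58128507-58128806, minus strand, for Hnrnpa0, chr15:103240147-103240446, plus strand, for Hnrnpa1, chr10:63023800-63024099, minus strand, for Hnrnph3, and chr12:80945249-80945548, plus strand, for Srsf5.
Hnrnpa0: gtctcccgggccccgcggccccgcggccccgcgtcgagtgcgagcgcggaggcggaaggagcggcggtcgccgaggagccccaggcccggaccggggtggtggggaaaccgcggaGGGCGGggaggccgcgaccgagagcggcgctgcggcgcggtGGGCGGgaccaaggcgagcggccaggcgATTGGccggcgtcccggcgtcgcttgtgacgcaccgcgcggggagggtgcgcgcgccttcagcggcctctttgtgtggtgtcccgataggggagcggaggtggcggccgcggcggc
Hnrnpa1: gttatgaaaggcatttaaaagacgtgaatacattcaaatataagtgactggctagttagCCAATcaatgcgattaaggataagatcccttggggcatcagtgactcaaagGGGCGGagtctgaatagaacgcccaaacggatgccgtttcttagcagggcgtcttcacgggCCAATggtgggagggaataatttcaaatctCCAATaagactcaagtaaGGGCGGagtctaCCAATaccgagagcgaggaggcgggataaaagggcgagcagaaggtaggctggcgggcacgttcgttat
Hnrnph3: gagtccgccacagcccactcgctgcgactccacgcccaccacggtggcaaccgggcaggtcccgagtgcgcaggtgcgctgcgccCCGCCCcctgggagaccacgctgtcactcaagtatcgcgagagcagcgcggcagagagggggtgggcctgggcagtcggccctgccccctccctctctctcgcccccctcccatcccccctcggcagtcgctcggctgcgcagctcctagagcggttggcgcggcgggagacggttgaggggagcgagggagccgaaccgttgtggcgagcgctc
Srsf5: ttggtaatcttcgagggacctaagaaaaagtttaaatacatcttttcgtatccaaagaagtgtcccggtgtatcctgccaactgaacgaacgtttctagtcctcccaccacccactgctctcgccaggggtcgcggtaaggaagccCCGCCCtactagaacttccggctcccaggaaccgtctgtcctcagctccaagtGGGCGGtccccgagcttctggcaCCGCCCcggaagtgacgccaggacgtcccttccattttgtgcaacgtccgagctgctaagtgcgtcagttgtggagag

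Hnrnpa1 holds 4 CCAAT words and Hnrnpa0 holds 1, whereas Hnrnph3 and Srsf5 hold none. Windows were found for 28 of the 30 members, all but Hnrnpll and Hnrnpul2. Of the members with a window, a CCAAT word was in 4 of the 4 called higher at W4 (Hnrnpa0, Hnrnpa1, Hnrnpab and Hnrnpf), in 3 of the 12 called lower (Hnrnph1, Srsf1 and Srsf2) and in 9 of the 11 not called. Over all genes tested that had a window, the shares were 39.3% of those called higher, 46.5% of those called lower and 42.3% of those not called. The box CCAAT was in 37.4% of all 32817 windows and in 48.7% of the members' 39 windows. GGGCGG was in 35.6% of all windows and in 87.2% of the members' windows, which had a median of 68.7% G and C bases, beside 52.7% in all windows. By gene, it was in 24 of the 28 members with a window. At W4 these were 4 of the 4 called higher, 12 of the 12 called lower and 7 of the 11 not called. Over all genes tested that had a window, the shares in the same order were 69.1%, 62.1% and 65.1%. The word was looked at after the calls were known, a match is no evidence of binding, and no test was made.

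Averaged over the 4 ages, 14 members were lower and 1, Hnrnpa0, was higher in cKO livers, beside 20.9% of all genes called lower and 20.7% called higher. The smallest p belonged to Srsf5 (mean log2 fold change -0.72 ± 0.08 SE, limma adjusted p = 2.22e-05), Hnrnpa0 (0.81 ± 0.09, adjusted p = 3.06e-05), Hnrnph3 (-0.64 ± 0.08, adjusted p = 7.21e-05) and Hnrnpdl (-0.42 ± 0.06, adjusted p = 0.000218). The 14 lower members were 7 SR and 7 hnRNP genes. As deposited, 4 members were lower, beside 9.81% of all genes, and 8 were higher, beside 40.6%. Srsf5, Srsf6, Srsf11 and Hnrnph3 were lower and Hnrnpa0 higher on all 3 scales. Among the lower calls, Srsf1 and Hnrnpul1 had the other sign as deposited (0.05 and 0.06). Hnrnpab missed the threshold (limma adjusted p = 0.0504). It was called without the first P1 cKO, the first W1 cKO, the second W2 Control or the first W4 Control library, which gave 2 members higher, and without the second W2 cKO library, which gave 3. With a term for sex, 7 members were lower. Shares of all genes were not worked out for that fit or for the fits without a library, so those counts are no result about the members.

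Whether the difference between genotypes depended on age was tested jointly over the 4 ages. An F test in limma called 14 of the 29 members, which is 48.3%, beside 43.6% of all genes, so the members' share was near the background. With deposited values it called 10 members, beside 49.6% of all genes. Sex differed between genotypes at W1 and in part at P1, but not at W2 or W4. Dependence on age thus cannot be fully told apart from sex. With a term for sex, Hnrnpa1, Hnrnpab and Hnrnpul2 were not called. Shares of all genes were not worked out for fits without a library, so counts under them are no result about the members. The smallest adjusted p belonged to Hnrnph3 (0.000588), Srsf11 (0.00219), Hnrnpa0 (0.00231) and Srsf5 (0.00643). For Hnrnph3 the log2 fold changes at P1, W1, W2 and W4 were 0.19, -0.43, -0.67 and -1.65, and for Srsf11 they were 0.44, -0.46, -1.0 and -1.35. For Hnrnpa0 they were -0.06, 0.59, 1.48 and 1.24, and as deposited they were 1.84 at W2 and 1.85 at W4. For Srsf5 they were -0.16, -0.89, -0.51 and -1.30, and its adjusted p was 0.083 on the deposited scale. The count was 8 without the second P1 Control, the first P1 cKO or the first W4 cKO library, and 9 without the second W1 Control, the second W4 Control or the second W4 cKO library.

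**Figure D4:**
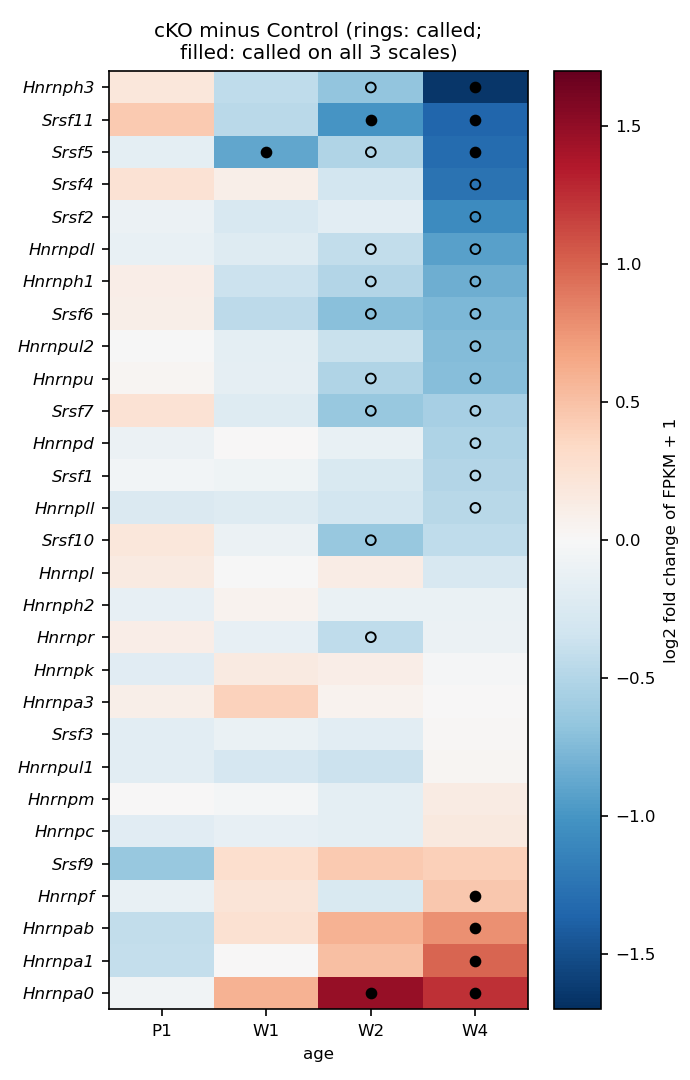
Log2 fold change of FPKM + 1, cKO minus Control (colour, blue lower in cKO), for 29 members (rows, ordered by the W4 value) at 4 ages (columns). Rings mark a call at adjusted p below 0.05 and filled circles a call on all 3 scales; no member is marked at P1, 1 at W1, 11 at W2 and 18 at W4.

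The genotypes also differed in how members changed between P1 and W4. These comparisons reuse the libraries of the comparisons above and are given side by side. In cKO livers 19 members were lower at W4 than at P1 and none was higher, beside 28.4% of all genes lower and 27.2% higher. In Control livers 15 were lower and 2, Hnrnph3 and Srsf11, were higher, beside 26.6% and 24.4% of all genes. Both P1 cKO libraries were female and both W4 cKO libraries male, so age and sex cannot be told apart in cKO livers. With a term for sex, which rests on P1 Control as the single group with both sexes, Hnrnpl, Hnrnpul1 and Srsf5 were no longer called there. The 19 in cKO livers were 9 of 10 SR and 10 of 19 hnRNP genes, and the 15 in Control livers were 4 of 10 SR and 11 of 19 hnRNP genes. The median log2 fold change of the members, W4 minus P1, was -0.85 in cKO livers and -0.54 in Control livers. Cell type markers moved over the same span. Their medians in cKO and Control livers were -6.24 and -5.48 for erythroid, -7.49 and -7.78 for neutrophil and -3.08 and -2.77 for lymphocyte markers. They were -2.84 and -4.05 for cell cycle, -0.19 and 1.00 for hepatocyte and 0.57 and -0.73 for macrophage markers. Stellate and fibroblast markers had 0.96 and -0.83, endothelial 0.35 and -0.90 and bile duct 2.50 and -0.59. Their part in the members' changes was not tested.

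In cKO livers the smallest p belonged to Hnrnpdl (log2 fold change -1.39 ± 0.12 SE, limma adjusted p = 2.73e-06), Hnrnpd (-1.78 ± 0.17, adjusted p = 5.06e-06), Srsf6 (-1.15 ± 0.13, adjusted p = 2.25e-05) and Hnrnph1 (-1.27 ± 0.15, adjusted p = 2.65e-05). Hnrnpd, an mRNA decay factor that binds AU-rich elements, had 7.72 and 8.82 rescaled FPKM at W4, against 29.5 and 32.3 at P1, in cKO livers, and 13.3 and 11.5 at W4, against 36.7 and 30.0 at P1, in Control livers. It had 17.8 and 21.1 in cKO, against 18.99 and 19.6 in Control livers at W1, and 13.8 and 13.7 in cKO, against 12.7 and 17.8 in Control livers at W2. It was lower at W4 than at P1 in both genotypes.

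In Control livers the smallest p belonged to Srsf3 (-1.29 ± 0.13 SE, limma adjusted p = 6.52e-06), Hnrnpd (-1.35 ± 0.17, adjusted p = 3.74e-05), Hnrnpa0 (-1.42 ± 0.18, adjusted p = 3.91e-05) and Hnrnpm (-1.0 ± 0.14, adjusted p = 0.000114). Srsf3 and Hnrnpm were lower at W4 in cKO livers too (-1.09 and -0.87), whereas Hnrnpa0 had -0.12 there and was not called. As deposited, 24 members were lower in Control livers, beside 42.1% of all genes, and none was higher, beside 12.4%, so the 2 higher calls rest on the rescaling. Neither was called without the second W4 Control library or with a term for sex, and Srsf11 was not called without the second P1 Control library. In cKO livers 19 were lower on the deposited scale, beside 25.4%, and none was higher, beside 31.7%, and the same 19 genes were called on all 3 scales.

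The difference between the 2 changes with age was tested directly. It called 10 members lower, beside 18.2% of all genes, and 4 higher, beside 19.5%. The smallest p belonged to Hnrnph3 (-1.84 ± 0.22 SE on the log2 scale, limma adjusted p = 0.000108), Srsf11 (-1.79 ± 0.28, adjusted p = 0.000557), Srsf5 (-1.14 ± 0.21, adjusted p = 0.0016) and Hnrnpa0 (1.30 ± 0.25, adjusted p = 0.002). Hnrnph3 and Srsf11 were lower at W4 than at P1 in cKO livers (-1.21 and -1.25), against 0.63 and 0.54 in Control livers. The 4 higher were Hnrnpa0, Hnrnpa1, Hnrnpab and Srsf9, whose changes in cKO livers lay between -0.14 and 0.16, against -1.54 to -0.90 in Control livers. These 4 were called higher on all 3 scales, and Hnrnph3, Srsf4 and Srsf11 lower on all 3. As deposited, 3 were lower, beside 8.79%, and 10 higher, beside 38%. Without the first P1 cKO or the second W4 Control library, Hnrnpa0 was the single member called higher.

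**Figure D5:**
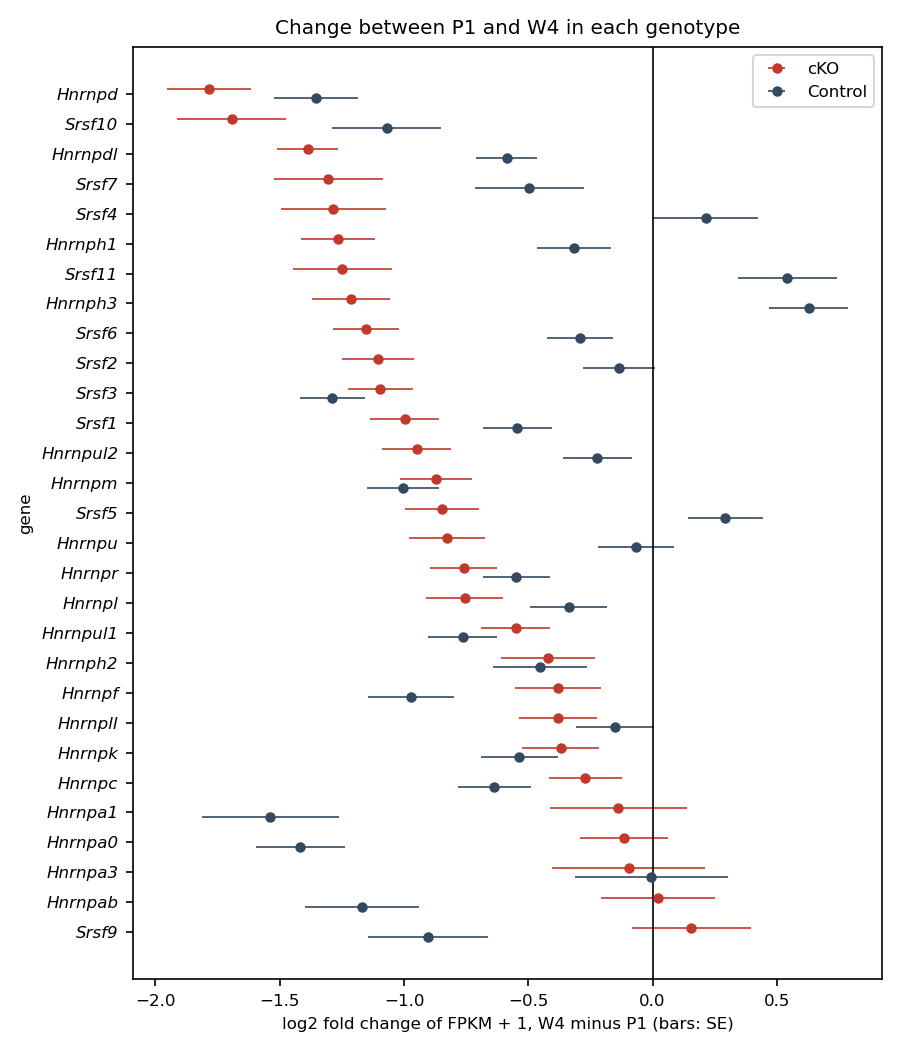
Log2 fold change of FPKM + 1, W4 minus P1, for 29 members in cKO (red) and Control (dark) livers; bars are the standard error of the limma fit. Hnrnph3, Srsf11, Srsf4 and Srsf5 lie left of 0 in cKO livers and right of 0 in Control livers (as deposited, Srsf4 and Srsf5 lie left of 0 in both), and Hnrnpa0, Hnrnpa1, Hnrnpab and Srsf9 lie near 0 in cKO livers and left of it in Control livers.

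The deposited values are one number per gene, which pools productive transcripts with those bearing a poison exon or a retained intron. In the GENCODE M21 annotation, 9 of the 10 SR members tested have a transcript marked as a target of nonsense-mediated decay, 90% of them, as do 9 of the 19 hnRNP members, 47.4%, against 28% of 12552 other protein-coding genes tested. A transcript with a retained intron is annotated for 80% of the SR and 68.4% of the hnRNP members, against 58.2% of the other genes. These shares count annotated transcripts, not reads, and which transcripts made up the levels above was not measured here. The members also have more annotated transcripts, with a median of 7.5 for SR and 7 for hnRNP genes, against 5 for the other genes. The shares were not adjusted for this. Hnrnpa1, Hnrnpa3 and other members have processed pseudogenes with near-identical sequence, so reads may have been divided between copies and their levels are uncertain. Exons on the opposite strand also overlap those of Hnrnpab (Phykpl), Hnrnpk (Rmi1) and Hnrnpu (Cox20).

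The partners of SR proteins were counted with the same fit, beside the same share of all genes, 24.5% lower and 26.3% higher at W4. Of 14 SR-related proteins, which carry arginine-serine stretches without being classical SR proteins, 9 were lower and 1 higher in cKO livers at W4, with a median log2 fold change of -0.56. Luc7l2 and Luc7l3, which help define the splice donor site, were lower (-2.04 ± 0.23 SE, limma adjusted p = 2.27e-05, and -1.26 ± 0.14, adjusted p = 1.48e-05). At W2, 8 of the 14 were lower and 3 higher, led by Acin1 (-1.16 ± 0.16, adjusted p = 0.00052), and at W1 Son, a nuclear speckle scaffold, was the one called and was higher (1.00 ± 0.16, adjusted p = 0.00451). Of 9 kinases and import receptors of SR proteins, 5 were lower and none higher at W4 (median -0.66). Clk4 and Clk3, which phosphorylate SR proteins, were lower (-1.64 ± 0.21, adjusted p = 5.38e-05, and -1.26 ± 0.17, adjusted p = 8.71e-05). On the deposited scale the W4 counts were 3 lower and 3 higher for the SR-related proteins and 3 lower and 3 higher for the kinases and receptors, with Luc7l2, Luc7l3, Clk3 and Clk4 still lower, beside 12.4% lower and 46.9% higher of all genes. The shares of all genes at W2 were 14.5% lower and 14.3% higher.

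The other lists were counted at W4 in the same way. Of 12 hnRNPs that carry other symbols, 3 were higher and 3 lower, with Rbmxl1 higher (1.47 ± 0.22 SE, limma adjusted p = 0.000176) and Rbmx lower (-0.94 ± 0.17, adjusted p = 0.000593), and these near-identical paralogs may share reads. Of 28 core spliceosome genes, 8 were higher and 9 lower, including Eftud2, a GTPase of the spliceosome that was higher (0.97 ± 0.14), and Sf3b1, a branch-site component that was lower (-1.11 ± 0.22). Of 13 other regulators of alternative splicing tested, 1 was higher and 4 lower, with Tial1 and Mbnl1 lower (-1.29 ± 0.15 and -1.01 ± 0.17). Of 10 nonsense-mediated decay factors, 2 were higher and 4 lower, with Smg8 higher (1.15 ± 0.23) and Upf3b lower (-0.79 ± 0.19). Of 17 m6A writers, erasers and readers tested, 6 were higher and 2 lower, with Ythdf2, a reader that promotes mRNA decay, higher (1.59 ± 0.16), as it was at W1 and W2 (1.00 ± 0.16 and 1.14 ± 0.16). At W2 the counts higher and lower were 2 and 3 for the hnRNPs under other symbols, 3 and 3 for the core spliceosome, 1 and 4 for the regulators, 1 and 3 for the decay factors and 4 and 3 for the m6A genes, beside 14.3% and 14.5% of all genes. On the deposited scale, where 46.9% of all genes were higher and 12.4% lower, the W4 counts higher and lower were 6 and 0 for the hnRNPs under other symbols, 16 and 0 for the core spliceosome, 6 and 1 for the regulators, 4 and 0 for the decay factors and 11 and 0 for the m6A genes, and of the lower genes named here Tial1 was still called (-0.71) while Rbmx, Sf3b1, Mbnl1 and Upf3b were not (-0.41, -0.50, -0.44 and -0.22).

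The cell type markers moved with the W4 results. Hepatocyte markers summed to 22365 to 23457 in cKO livers, against 71693 to 75346 in Control livers (rescaled FPKM, 10 markers), with 0 higher and 7 lower of 10 tested. Those of bile duct summed to 131 to 199.7 in cKO livers, against 18.7 to 22.1 in Control livers (5 higher and 0 lower of 5), of stellate cells and fibroblasts to 212 to 312 in cKO livers, against 53.2 to 63.4 in Control livers (8 higher and 0 lower of 8), of macrophages to 230.4 to 240.1 in cKO livers, against 86.0 to 111 in Control livers (6 higher and 0 lower of 7) and of endothelium to 125 to 130.5 in cKO livers, against 65.9 to 70.1 in Control livers (6 higher and 0 lower of 7). Cell cycle genes summed to 51.6 to 54.6 in cKO livers, against 17.6 to 24.8 in Control livers (8 higher and 0 lower of 12). The groups did not overlap in any of these 6 lists.

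Erythroid markers summed to 182 to 186 in cKO livers, against 371 to 413 in Control livers at W4 (0 higher and 4 lower of 10), lymphocyte markers to 5.47 to 11.5 in cKO livers, against 5.22 to 7.29 in Control livers (0 higher and 1 lower of 7) and neutrophil markers to 3.09 to 6.19 in cKO livers, against 3.80 to 5.96 in Control livers (0 higher and 0 lower of 6). At W2 hepatocyte markers summed to 82914 to 83861 in cKO livers, against 64464 to 67917 in Control livers, macrophage markers to 112 to 152 in cKO livers, against 125 to 172 in Control livers and lymphocyte markers to 19.1 to 25.8 in cKO livers, against 65.0 to 65.6 in Control livers, the last with 0 higher and 6 lower of 7 called. At W1 they summed to 64830.0 to 65914 in cKO livers, against 78706 to 93407 in Control livers for hepatocytes and 215 to 255 in cKO livers, against 149 to 166 in Control livers for macrophages. The part of these shifts in the results for the SR and hnRNP genes was not tested.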

How the data were processed

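Poly(A) RNA of mouse liver, in 16 libraries, was sequenced as paired-end reads on an Illumina instrument. The FPKM values (fragments per kilobase of gene, scaled to the fragments of the library) were deposited by the authors as 1 column per library. The processing notes name HISAT2, mm10 and DESeq2, and the counting tool, its use of strand and the annotation were not given in the sources used here. Depth was read from the steps between low values and lies between 10.8 and 15.3 M reads.

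Tests used genes that reached 1 FPKM in 2 or more libraries, with values rescaled by median of ratios over 13321 genes with a value in every library. In R 4.3.3, limma 3.58.1 modelled log2(FPKM + 1) by 8 group means with an intensity trend, and calls were made at an adjusted p below 0.05 over all genes tested. A fold change on this scale understates the change of genes with low values. Because the deposited values are FPKM, no count test was run. The fit was also run on values simulated from its own group means and spread with independent normal noise. Such values cannot check the choice of scale or the imbalance of sex. The alternatives were the deposited scale, the total of nuclear genes, 0.1 FPKM added, no filter, no trend, the replicate block, a term for sex (from Xist and Eif2s3y), each age alone, each library left out, and the threshold of the study (absolute log2 fold change above 1 and unadjusted p below 0.05). Promoters and gene models came from RefSeq and GENCODE tables, read with Python 3.11.15.

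The members and lists were chosen with earlier results of these data known. For each comparison the 4 members with the smallest p were named with their test, and a set of well-known members with values at every age. From the other lists (hnRNPs under other symbols, SR-related proteins, SR protein kinases and import receptors, core spliceosome, other regulators of alternative splicing, nonsense-mediated decay, m6A writers, erasers and readers, and the markers of 9 cell types or states), up to 2 called genes were named. One gene meeting the name rule was left out and is not reported here.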

Additional observations from a re-analysis of the deposited data

Results flagged for a closer look

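In 14 of the 29 members tested the difference between cKO and Control livers was not the same at the 4 ages, by the joint F test in limma with adjustment over all 14913 genes. They were Hnrnph3 (adjusted p = 0.000588), Srsf11 (adjusted p = 0.00219), Hnrnpa0 (adjusted p = 0.00231), Srsf5 (adjusted p = 0.00643), Srsf4 (adjusted p = 0.00721), Srsf2 (adjusted p = 0.0085), Srsf6 (adjusted p = 0.0111), Hnrnpdl (adjusted p = 0.0115), Hnrnph1 (adjusted p = 0.0198), Hnrnpab (adjusted p = 0.0391), Hnrnpul2 (adjusted p = 0.0406), Hnrnpu (adjusted p = 0.0435), Hnrnpa1 (adjusted p = 0.046) and Srsf9 (adjusted p = 0.0496). The same test called 43.6% of all genes, so a share of this size is not particular to these families. Both W1 cKO libraries were female and both W1 Control libraries male, while all W2 and W4 libraries were male. Dependence of the difference on age thus cannot be fully told apart from sex. With a term for sex, Hnrnpa1, Hnrnpab and Hnrnpul2 were not called. Hnrnpa0 was higher in both cKO livers than in both Control livers at W1, W2 and W4, and Hnrnph3 was higher in both cKO livers at P1 and lower in both at W1, W2 and W4. Hnrnpab, Hnrnpul2, Hnrnpu, Hnrnpa1 and Srsf9 were close to the threshold. These and Hnrnph1 were among the calls lost without single libraries.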

How the results depend on the processing

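Of the 36 tests named for the smallest p in their comparison, those with a direction kept it under every alternative. The 4 F tests of dependence on age have no direction. As deposited, 6 of the 36 no longer passed the threshold. With nuclear totals 5 no longer passed and 1 newly passed, and with a term for sex 1 no longer passed. With each age alone, 5 of 16 no longer passed. The other fits on all 16 libraries changed none of these calls. Among the other calls, Hnrnpd, Hnrnpll, Srsf1 and Srsf7 at W4 and Srsf1 and Hnrnpul1 in the mean had the other sign, uncalled, on the deposited and nuclear-total scales. As deposited, 2 were higher and 1 lower at W2, 10 and 5 at W4, 8 and 4 in the mean over ages, 0 and 24 for W4 minus P1 in Control livers, and 10 and 3 for the difference between genotypes in that change. With nuclear totals, 1 was higher at W1, 11 higher and 3 lower at W4, 5 and 4 in the mean, 0 and 24 in Control livers, and 9 and 3 for the difference. Of all genes, nuclear totals called 5.12% higher at W1, 48% higher and 11% lower at W4, 36.3% and 10.3% in the mean, 13.1% and 37.7% in Control livers, and 32.1% and 9.14% for the difference. With a term for sex, 0 were lower at W1, 7 lower in the mean and 0 higher in Control livers. With each age alone, 0 were lower at W1, 0 higher and 0 lower at W2, and 2 higher at W4. Under the threshold of the study, 0 were lower at W1 and W2, and 1 higher and 5 lower at W4. Shares of all genes were not worked out for the term for sex, each age alone or this threshold. The counts under them are therefore no result about the members. Adding 0.1 FPKM or dropping the trend gave 2 higher in the mean, and no filter gave 1 higher in Control livers. Shares of all genes were not worked out for these fits either, so their counts are no result about the members.

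With 1 library left out, the counts ran from 0 to 1 lower at W1, 1 to 4 higher and 2 to 9 lower at W2, 1 to 4 higher and 11 to 14 lower at W4, 1 to 3 higher and 10 to 14 lower in the mean, 0 to 2 higher and 14 to 16 lower in Control livers, 18 to 20 lower in cKO livers, 1 to 5 higher and 8 to 11 lower for the difference, and 8 to 14 for dependence on age. Srsf5 at W1 ran from -1.08 to -0.71 and Hnrnph3 at W2 from -0.86 to -0.49. The lone library left in a group is assumed to vary like the other groups. Shares of all genes were not worked out for any fit without a library. These counts, and those given above for such fits, are therefore no result about the members.

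With the replicate number as a replicate block, the counts were 20 lower in cKO livers, 11 lower for the difference and 11 for dependence on age, and were unchanged for the other comparisons. The shares of all genes called by that fit were not worked out, so its counts are no result about the members. Libraries with the same number deviated together with correlations of 0.00465 at P1, 0.137 at W1, 0.025 at W2 and 0.0939 at W4, so the number was not taken to pair them. With 2 libraries per group, the spread is known only from the groups together, and sex differs between genotypes at W1.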
